A study of Homo sapiens with 6 samples.

Results

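The genes described here are the core of the transforming growth factor beta (TGF-beta) pathway as it was measured in A549 cells, an established line of human lung adenocarcinoma. They were chosen by gene symbol, with earlier results of these data known, and comprise 9 of the 60624 genes in the deposited table. These are the ligands TGFB1 and TGFB2, the receptors TGFBR1 and TGFBR2, the signal transducers SMAD2, SMAD3 and SMAD4, the inhibitor SMAD7, and TGFBI. TGFBI is named for its induction by TGF-beta. RNA-seq was performed on 3 siCEP20 samples, transfected with small interfering RNA (siRNA) against CEP20, and on 3 siCTR samples, transfected with a control siRNA. Both groups were A549 cells 3 days after transfection, with no TGF-beta or other agent named in the labels. The knockdown was transient and in a single cell line, the study describes 2 siRNA sequences without naming which was sequenced, and 1 label field names a plasmid transfection. The study describes its results in general as coming from 3 independent experiments, but the labels do not say that the 3 RNA-seq samples of a group came from separate cultures. P-values here measure the spread between these samples, part of which may be technical.

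TGF-beta ligands are secreted in a latent form and, once released, bind the receptor TGFBR2, which recruits and phosphorylates TGFBR1. TGFBR1 then phosphorylates SMAD2 and SMAD3, which join SMAD4 and enter the nucleus to regulate transcription, while SMAD7 is induced by the signal and blocks the receptor. In lung epithelium and carcinoma cells the pathway is known for growth arrest, matrix production and the epithelial to mesenchymal transition.

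Expression was deposited as TPM, a read abundance that is divided by transcript length and adds up to the same sum in every library, so the sequencing depth is unknown. CEP20 itself was at 29.2, 30.5 and 35.1 TPM in the siCTR samples and 16.2, 15.3 and 17.3 TPM in the siCEP20 samples, so 51.4% of its mean control level was left. Group differences were tested with limma on log2(TPM + 1) in 14778 genes (mean over the libraries 1 TPM or more), with Benjamini-Hochberg adjustment over all of them, and all 9 genes passed that filter. The log2 fold changes of the tested genes had a median of 0.13, or -0.01 once libraries were scaled by the median of ratios. At the threshold of 0.05 on the adjusted p, 30.2% of them were higher and 13.2% lower. With median-of-ratios scaling these shares were 19.7% and 21.8%. The epithelial markers KRT8, KRT18, KRT19, EPCAM, CDH1 and CLDN4 were all detected. Their summed levels were 3232 to 3302 TPM in siCTR and 4189 to 4370.0 TPM in siCEP20 libraries, nearly all from KRT8 and KRT18. EPCAM was low, with means of 1.04 TPM in siCTR and 3.38 TPM in siCEP20 samples. CLDN4, the only marker of this list that was not higher, had means of 2.70 and 1.98 TPM (adjusted p = 0.146, limma). The 5 endothelial markers summed to at most 0.437 TPM in any library. The 7 fibroblast markers summed to 12.1 to 15.2 TPM in siCTR and 31.2 to 35.1 TPM in siCEP20 libraries, nearly all from COL1A1 and THY1, while COL1A2 and DCN were listed at 0 throughout. The 6 immune markers summed to 24.5 to 34.6 and 35.3 to 55.1 TPM, mostly from CD68 and CD14, and CD3E and MS4A1 were listed at 0.

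The promoters of the 3 genes with the largest log2 fold changes, TGFB2, SMAD2 and TGFBI, are shown with that of SMAD4, the 1 gene of the 9 that did not pass the test. Each is the window from 250 bases before to 50 bases after the start of the canonical transcript, from RefSeq (GRCh38.p14), read 5′ to 3′ on the strand of the gene. Capitals mark GGGCGG (GC box), CAGAC (SMAD half-site), TGACTCA (AP-1 site) and CACGTG (E-box), each sought on both strands. The windows are chr1:218345086-218345385 (plus strand), chr18:47930610-47930909 (minus strand), chr5:136028738-136029037 (plus strand) and chr18:51029963-51030262 (plus strand).
TGFB2: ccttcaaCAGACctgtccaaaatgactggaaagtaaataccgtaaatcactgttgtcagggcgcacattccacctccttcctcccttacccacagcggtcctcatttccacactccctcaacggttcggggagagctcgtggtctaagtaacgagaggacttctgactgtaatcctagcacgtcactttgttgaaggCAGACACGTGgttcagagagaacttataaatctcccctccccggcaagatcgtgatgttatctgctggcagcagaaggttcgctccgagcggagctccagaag
SMAD2: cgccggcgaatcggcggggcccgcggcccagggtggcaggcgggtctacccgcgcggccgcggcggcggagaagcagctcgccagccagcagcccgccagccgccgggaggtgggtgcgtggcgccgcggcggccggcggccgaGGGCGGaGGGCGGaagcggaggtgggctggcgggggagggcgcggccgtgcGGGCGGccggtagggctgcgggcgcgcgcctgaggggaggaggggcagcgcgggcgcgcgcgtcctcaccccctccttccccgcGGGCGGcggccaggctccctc
TGFBI: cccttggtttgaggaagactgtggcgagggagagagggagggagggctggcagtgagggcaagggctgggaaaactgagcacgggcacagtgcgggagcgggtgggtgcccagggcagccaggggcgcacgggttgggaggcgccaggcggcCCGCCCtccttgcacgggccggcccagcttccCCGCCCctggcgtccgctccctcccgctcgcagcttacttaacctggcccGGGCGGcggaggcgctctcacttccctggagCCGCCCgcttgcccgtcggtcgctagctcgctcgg
SMAD4: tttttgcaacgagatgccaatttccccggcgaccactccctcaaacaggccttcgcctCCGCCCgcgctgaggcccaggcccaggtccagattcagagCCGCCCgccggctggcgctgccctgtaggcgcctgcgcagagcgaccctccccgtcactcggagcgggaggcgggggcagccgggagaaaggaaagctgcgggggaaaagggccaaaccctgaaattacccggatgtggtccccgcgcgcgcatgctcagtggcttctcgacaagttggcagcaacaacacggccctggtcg
The TGFB2 window held 2 SMAD half-sites and 1 E-box and no GC box, and its second half-site runs into the E-box. The SMAD2 and TGFBI windows each held 4 GC boxes and the SMAD4 window 2, and none of these held a half-site. Among the windows of all 9 genes, 4 held a SMAD half-site, as did 45.3% of the 35116 promoter windows in the reference. A GC box was found in 6 of the 9 windows and in 45.0% of all windows, an E-box in 2 (TGFB2 and SMAD3) and in 7.26% of all windows, and an AP-1 site in 1 (TGFBR2) and in 4.95% of all windows. The palindrome GTCTAGAC was in none of the 9 windows and in 0.202% of all windows. These are matches of letters and describe no binding.

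After CEP20 knockdown, 8 of the 9 genes were higher and 0 lower at that threshold (limma), where the background was 30.2% and 13.2% of all tested genes. At an unadjusted p-value under 0.05, 0 were lower as well. The upregulated genes were both ligands, both receptors, SMAD2, SMAD3, SMAD7 and TGFBI, and in each of them every siCEP20 value lay above every siCTR value, as it did in 38.4% of all tested genes. The reverse order, in 17% of all tested genes, occurred in 0 of the 9. TGFB2, SMAD2 and TGFBI about doubled, with mean TPM 2.01, 1.96 and 1.95 times the control. With the study's fold change threshold added (over 1.5), 6 of the 9 were called higher, against 11.2% of all tested genes, and 0 were called lower (fold change under 0.67), against 4.61%. SMAD3 and SMAD7 did not reach that threshold, and TGFBR2 lay just above it at 1.51 times the control mean. The median log2 fold change of the 9 genes was 0.72, or 0.59 above that of the tested genes as a whole.

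**Figure D1:**
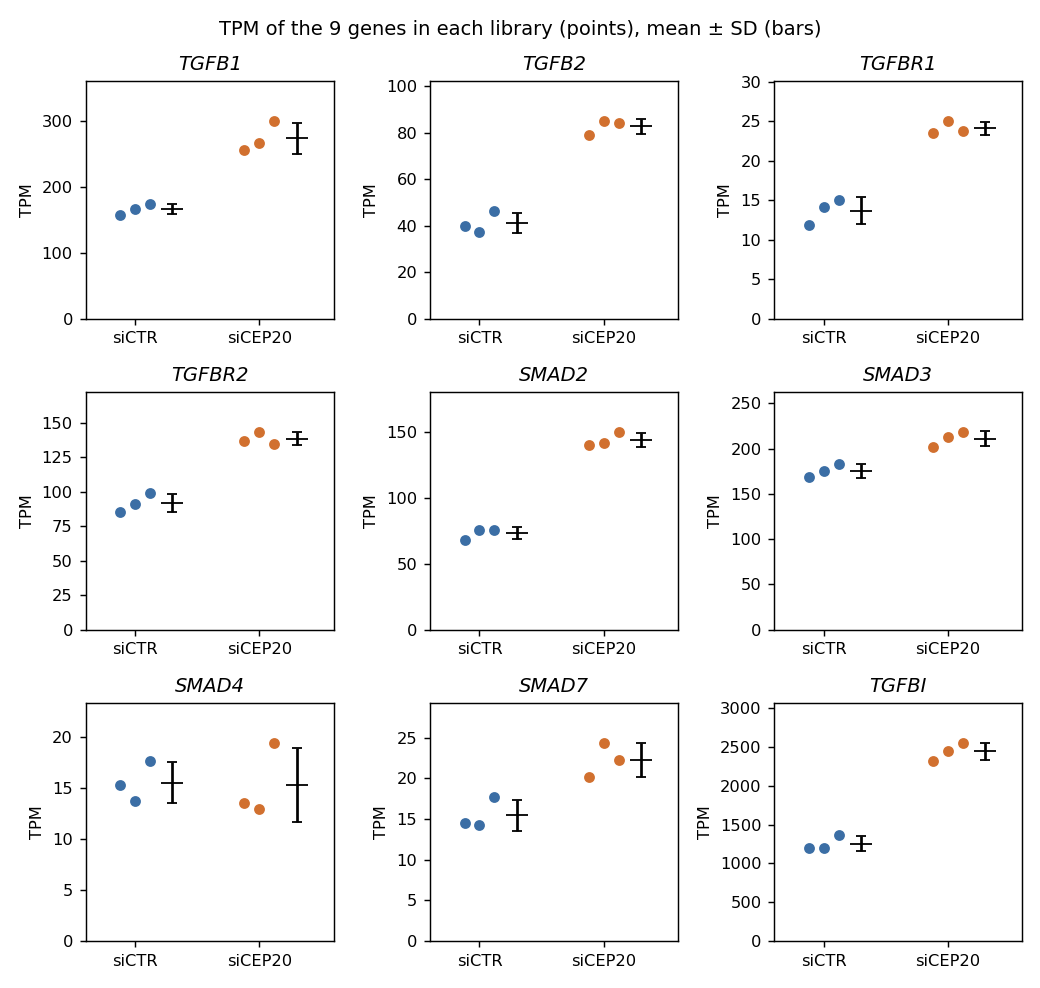
TPM (y axes, from 0) of the 9 genes in the 3 siCTR libraries (blue points) and 3 siCEP20 libraries (orange points), with bars for mean ± SD. The points of the 2 groups are separate in every panel except SMAD4. There the siCTR points (13.7 to 17.6 TPM) lie within the range of the siCEP20 points (13.0 to 19.5 TPM).

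In siCTR cells the levels spanned from TGFBI, at 1254 TPM, to TGFBR1, at 13.7 TPM. SMAD3 (175 TPM) and TGFB1 (165 TPM) followed TGFBI and their ranges overlapped. TGFBR2 (91.9 TPM), SMAD2 (73.4 TPM) and TGFB2 (41.2 TPM) came next with separate ranges, and SMAD4 (15.6 TPM), SMAD7 (15.5 TPM) and TGFBR1 could not be ordered beyond their spread. In siCEP20 cells the order of the means changed in several places. TGFB1 (273 TPM) stood above SMAD3 (211 TPM) with separate ranges. SMAD2 (144 TPM) reached TGFBR2 (138 TPM), whose ranges overlapped, and SMAD4 (15.3 TPM) came last, separate from SMAD7 (22.3 TPM). With the TPM of a readthrough gene that shares part of its exons added (described below), SMAD4 was at 19.1, 15.1 and 24.2 TPM in siCEP20 samples. That range overlapped the SMAD7 range of 20.2 to 24.4 TPM.

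Among the ligands, TGFB1 encodes the most widely expressed isoform and TGFB2 a second isoform that depends more on co-receptors for binding. TGFB1 (ENSG00000105329, chromosome 19 from 41301587 to 41353922, minus strand) was at 158, 166 and 173 TPM in siCTR and 255, 265 and 299.8 TPM in siCEP20 samples. The lowest knockdown sample thus exceeded the highest control by a wide margin. It rose from 165 ± 7.80 to 273 ± 23.5 TPM (mean ± SD, n = 3 in each group). The log2 fold change was 0.72 ± 0.0721 (SE), with an adjusted p = 0.000209 by limma. The gene overlaps HNRNPUL1, CCDC97 and TMEM91 on the opposite strand. Although the libraries were strand-specific, the strand setting of the quantification is not stated. HNRNPUL1, the most abundant of them, rose as well, from 421 ± 29.7 to 620.1 ± 29.4 TPM (adjusted p = 0.000386, limma), and its part in the TGFB1 value was not tested. On the same strand TGFB1 overlaps the noncoding gene ENSG00000286177, which was at 2.44 TPM in siCTR and 6.42 TPM in siCEP20 samples.

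TGFB2 (ENSG00000092969, chromosome 1 from 218345336 to 218444619, plus strand) was at 39.9, 37.4 and 46.1 TPM in siCTR and 79.1, 85.2 and 84.1 TPM in siCEP20 samples. The siCEP20 values were close together and far above the controls. Its mean went from 41.2 ± 4.48 to 82.8 ± 3.22 TPM, and its log2 fold change of 1.00 ± 0.0846 (SE) was the largest of the 9 genes (adjusted p = 0.000103, limma). The antisense RNA TGFB2-AS1 was low in both groups, at 1.61 ± 0.674 and 1.14 ± 0.314 TPM (adjusted p = 0.383, limma).

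Both ligands rose, TGFB2 by the larger factor. Within each library, TGFB2 was present at 0.253, 0.226 and 0.266 times the TPM of TGFB1 in siCTR and at 0.310, 0.321 and 0.281 times in siCEP20 samples. Such a ratio does not depend on scaling between libraries. The groups were separate, with a difference in the log2 ratio of 0.29 (two-sided exact permutation test, p = 0.1, the smallest possible with 3 samples a group). On the log2(TPM + 1) scale the difference was 0.28, and correcting each library for length and GC content on that scale left 0.18.

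The receptor genes TGFBR1 and TGFBR2 encode serine/threonine kinases of type I and type II. TGFBR1 (ENSG00000106799, chromosome 9 from 99104038 to 99154192, plus strand) was at 11.8, 14.1 and 15.1 TPM in siCTR and 23.5, 25.1 and 23.8 TPM in siCEP20 samples. All knockdown values were well above the highest control. It rose from 13.7 ± 1.69 to 24.1 ± 0.830 TPM. Its log2 fold change was 0.78 ± 0.0991 (SE), with an adjusted p = 0.000586 by limma.

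TGFBR2 (ENSG00000163513, chromosome 3 from 30606601 to 30694142, plus strand) was at 85.6, 91.1 and 98.9 TPM in siCTR and 137, 144 and 135 TPM in siCEP20 samples. The groups were separate and the spread within each was small. The gene rose from 91.9 ± 6.65 to 138 ± 4.66 TPM. The fitted log2 fold change was 0.59 ± 0.0671 (SE), with an adjusted p = 0.000372 by limma. It was the more abundant receptor in every library, with 7.26, 6.45 and 6.56 TPM of TGFBR2 for each TPM of TGFBR1 in siCTR and 5.83, 5.73 and 5.66 in siCEP20 samples. The excess of TGFBR2 was thus smaller in every siCEP20 library (two-sided exact permutation test, p = 0.1, the smallest possible). The difference in the log2 ratio was -0.23, and -0.19 on the log2(TPM + 1) scale. On that second scale it became -0.15 with the length and GC correction and -0.11 with quantile normalization.

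**Figure D2:**
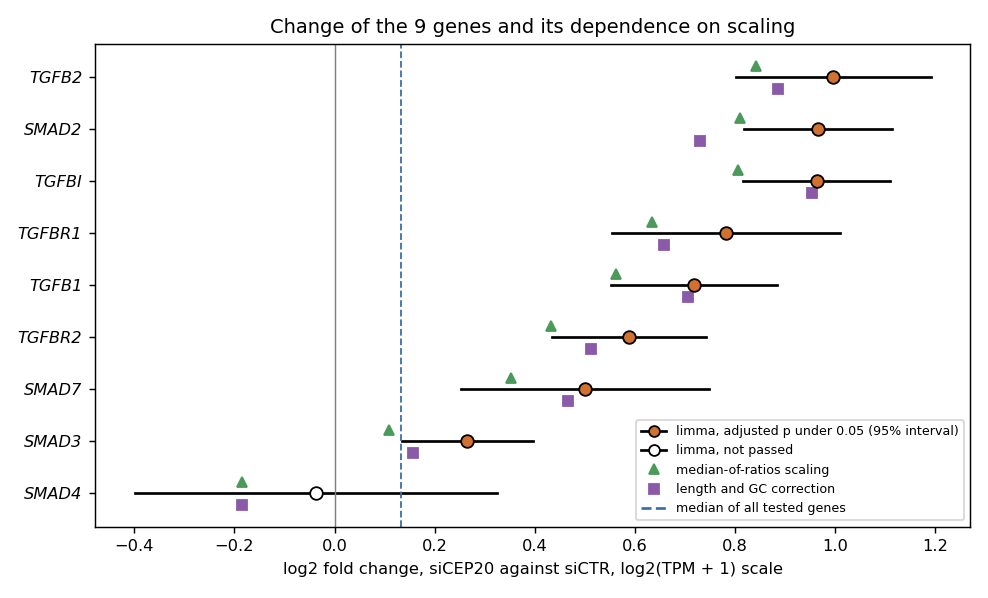
Log2 fold change of each of the 9 genes (circles, siCEP20 against siCTR on the log2(TPM + 1) scale) with its 95% interval from limma, the value with median-of-ratios scaling (triangles), the value after the length and GC correction (squares) and the median of all tested genes (dashed line, 0.13). TGFB2, SMAD2 and TGFBI lie highest, the values of SMAD3 under both alternatives are 0.11 and 0.16, and the interval of SMAD4 includes 0.

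SMAD2 and SMAD3 are the receptor-activated SMADs of the TGF-beta branch. SMAD2 (ENSG00000175387, chromosome 18 from 47808957 to 47931146, minus strand) was at 68.2, 75.8 and 76.1 TPM in siCTR and 140.2, 142 and 150.2 TPM in siCEP20 samples. The gap between the groups was several times wider than the range within either. It rose from 73.4 ± 4.44 to 144 ± 5.33 TPM. Its log2 fold change was 0.97 ± 0.0646 (SE), with an adjusted p = 4.91e-05 by limma. Its canonical transcript is 34626 bases long, longer than that of 99.99% of tested genes with a length, and after the length and GC correction its log2 fold change was 0.73. On the same strand SMAD2 overlaps the pseudogene MTCO2P2, which was low, at 1.37 ± 0.534 TPM in siCTR and 3.79 ± 3.20 TPM in siCEP20 samples (adjusted p = 0.178, limma).

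SMAD3 (ENSG00000166949, chromosome 15 from 67063763 to 67195173, plus strand) was at 168, 175 and 183 TPM in siCTR and 202, 213 and 219 TPM in siCEP20 samples. The groups were separate but close. It rose from 175 ± 7.50 to 211 ± 8.57 TPM. This was a log2 fold change of 0.27 ± 0.0572 (SE), with an adjusted p = 0.00687 by limma, which was 0.13 relative to all tested genes. With median-of-ratios scaling the log2 fold change was 0.11 (adjusted p = 0.0928, limma) and after the length and GC correction 0.16 (adjusted p = 0.0579, limma), so its call was lost under both. Its other alternatives gave an adjusted p of 0.00492 to 0.0270.

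The balance between both transducers differed between the groups. The TPM of SMAD3 was 2.46, 2.31 and 2.41 times that of SMAD2 in the siCTR libraries and 1.44, 1.5 and 1.45 times in the siCEP20 libraries. The ranges lay far apart relative to their spread. The difference in the log2 ratio was -0.71 (two-sided exact permutation test, p = 0.1, the smallest possible). On the log2(TPM + 1) scale it was -0.70, and -0.57 after the length and GC correction.

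**Figure D3:**
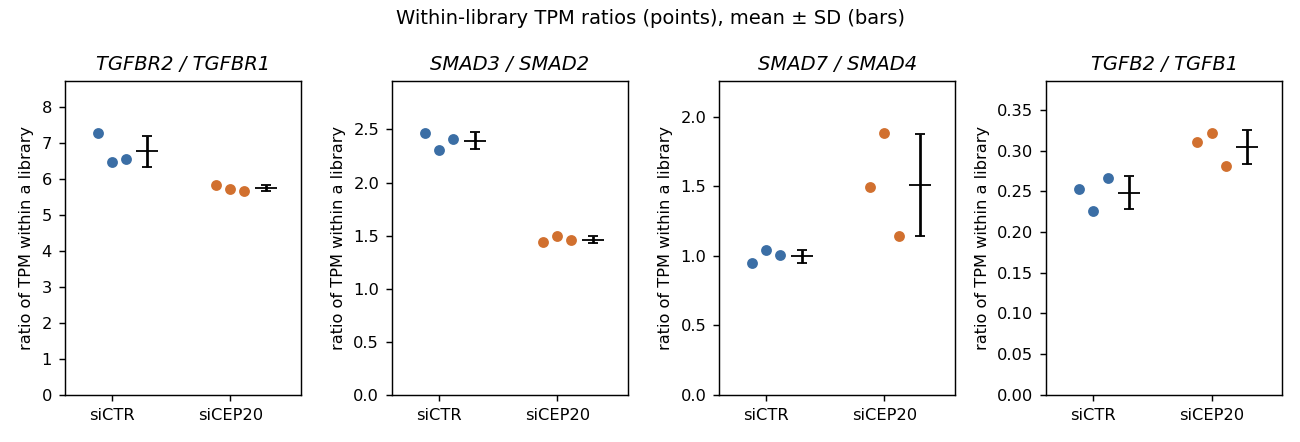
Ratios of TPM between 2 genes within each library (y axes, from 0) in siCTR (blue) and siCEP20 (orange) samples, with bars for mean ± SD. TGFBR2 to TGFBR1 and SMAD3 to SMAD2 are lower in every siCEP20 library, and SMAD7 to SMAD4 and TGFB2 to TGFB1 are higher.

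SMAD4 encodes the common partner that receptor-activated SMADs of the TGF-beta and BMP branches share. SMAD4 (ENSG00000141646, chromosome 18 from 51028528 to 51085045, plus strand) was at 15.4, 13.7 and 17.6 TPM in siCTR and 13.5, 13.0 and 19.5 TPM in siCEP20 samples. A pair of knockdown samples lay below all controls and the other above them. The means were 15.6 ± 1.97 and 15.3 ± 3.60 TPM, and the log2 fold change was -0.04 (95% interval -0.40 to 0.32, adjusted p = 0.868, limma), so neither a moderate decrease nor a moderate increase was distinguishable. Its sign turned without siCEP20 replicate 1 (0.04), without siCEP20 replicate 2 (0.06) and without siCTR replicate 3 (0.05), and the call did not pass in any of these.

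The SMAD4 value may also depend on a neighbour. ENSG00000267699 (chromosome 18 from 50968019 to 51058144, plus strand) is annotated as a readthrough gene. Of the 1228 exonic bases of its canonical transcript, 814 lie in SMAD4 exons, so reads from these bases can be assigned to either gene. The canonical transcript of SMAD4 is 8772 bases long, so most of it is not shared. The readthrough gene was at 0.5, 1.29 and 0.479 TPM in siCTR and at 5.56, 2.14 and 4.75 TPM in siCEP20 samples. This gene rose, with separate groups and a log2 fold change of 1.51 (adjusted p = 0.00498, limma). When both rows were summed, an alternative chosen after seeing the data, SMAD4 was at 15.9, 15.0 and 18.1 TPM in siCTR and 19.1, 15.1 and 24.2 TPM in siCEP20 samples. The groups overlapped again, with a log2 fold change of 0.22 (95% interval -0.14 to 0.58, adjusted p = 0.289, limma). TPM is divided by transcript length, and the canonical transcript of the readthrough gene is shorter than that of SMAD4. With these lengths, reads moved from it to SMAD4 would add less TPM than the sum does, and that case was not tested.

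SMAD4 made up 6.10%, 5.19% and 6.37% of the summed TPM of SMAD2, SMAD3 and SMAD4 in siCTR and 3.80%, 3.53% and 5.01% in siCEP20 samples. All knockdown shares were below all control shares (two-sided exact permutation test, p = 0.1, the smallest possible). With the TPM of the readthrough gene added, which is more than moved reads would add, the shares overlapped. They were then 6.29%, 5.65% and 6.53% against 5.29%, 4.09% and 6.16%. The SMAD2 share was 27.8% ± 0.824 in siCTR and 38.9% ± 0.459 in siCEP20 samples (SD, n = 3), and the SMAD3 share 66.4% ± 0.376 and 57.0% ± 0.794.

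**Figure D4:**
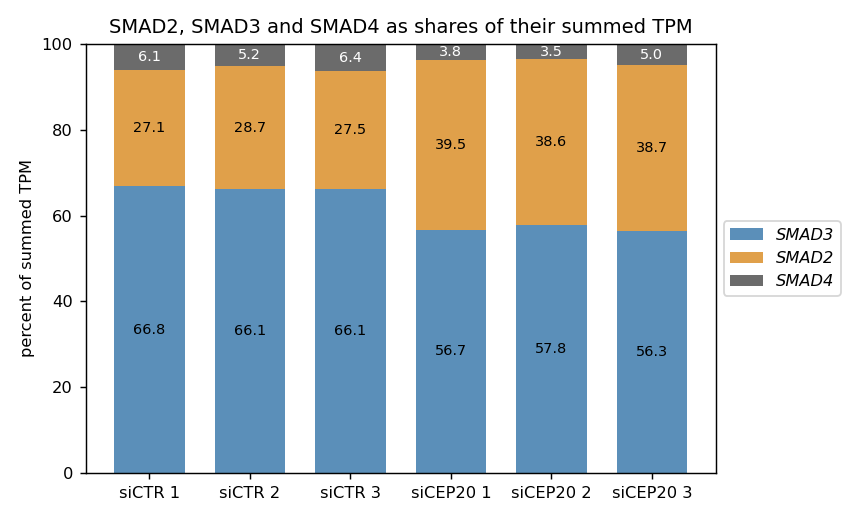
Shares of SMAD3 (blue), SMAD2 (orange) and SMAD4 (grey) in their summed TPM (y axis, percent) for each of the 6 libraries. The SMAD2 share is 27.1% to 28.7% in siCTR and 38.6% to 39.5% in siCEP20 libraries, and SMAD4 has the smallest share in every library.

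SMAD7, the inhibitory SMAD, is a direct target of the pathway in many cell types. SMAD7 (ENSG00000101665, chromosome 18 from 48919853 to 48950965, minus strand) was at 14.5, 14.3 and 17.7 TPM in siCTR and 20.2, 24.4 and 22.3 TPM in siCEP20 samples. The groups were separate, with a gap between 17.7 and 20.2 TPM. It rose from 15.5 ± 1.92 to 22.3 ± 2.07 TPM. Its log2 fold change was 0.50 ± 0.108 (SE), with an adjusted p = 0.00693 by limma. Its TPM was 0.945, 1.04 and 1.00 times that of SMAD4 in siCTR and 1.5, 1.88 and 1.14 times in siCEP20 libraries, which were separate (difference in the log2 ratio 0.57, two-sided exact permutation test, p = 0.1). With the TPM of the readthrough gene added to SMAD4 the ratios overlapped and the difference was 0.30. That sum adds more than moved reads would, and whether the ratios overlap with moved reads was not tested.

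TGFBI encodes a secreted matrix protein that binds collagens and integrins. TGFBI (ENSG00000120708, chromosome 5 from 136028988 to 136063818, plus strand) was at 1203, 1196 and 1364 TPM in siCTR and 2326, 2450.0 and 2553 TPM in siCEP20 samples. Its mean level over the 6 libraries exceeded that of 99.6% of all tested genes. It rose from 1254 ± 94.9 to 2443 ± 114 TPM. Its log2 fold change was 0.96 ± 0.0640 (SE), with an adjusted p = 4.91e-05 by limma. That change was larger than the log2 fold change of 97.8% of all tested genes, and with quantile normalization it was 1.19.

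The 9 genes differed in what the rule did not use. Their canonical transcripts ranged from 2712 bases (TGFBI) to that of SMAD2, and 7 of the 9 were longer than the transcripts of over 58% of tested genes. Log2 fold changes rose with transcript length over all tested genes (Pearson r = 0.24 across 99.7% of the 14778 genes, which share their libraries and are not independent). The median log2 fold change was 0.00 in genes with transcripts under 2000 bases, 0.14 from 2000, 0.23 from 4000 and 0.27 from 8000 bases. After the correction for length and GC content 7 of the 9 genes were higher, SMAD3 being lost. With that correction 4158 of the tested genes with a length were higher and 1778 lower. The part of length in the other changes was not tested further. Only SMAD2, SMAD4 and SMAD7 share a chromosome. The pattern of TGFB2, the gene with the largest change, was compared with those of 10678 other genes whose mean was 5 TPM or more. The most alike over the 6 libraries were PSMD6 (r = 0.999), PNRC1 (r = 0.999) and MAP7D1 (r = 0.999). An r of at least 0.98 was reached by 610 genes.

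The rest of the pathway was followed with 4 lists, written by hand with earlier results of these data known. They held 109 genes in all, of which 90 reached the mean needed for testing. By limma 51 were higher and 6 lower, or 56.7% and 6.67%, against 30.2% and 13.2% of all tested genes. With median-of-ratios scaling 38 were higher and 12 lower, where the background was 19.7% and 21.8%. Their median log2 fold change was 0.35, or 0.22 relative to all tested genes. With the fold change threshold, 28 were called higher and 1 lower, where the background was 11.2% and 4.61% of all tested genes.

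**Figure D5:**
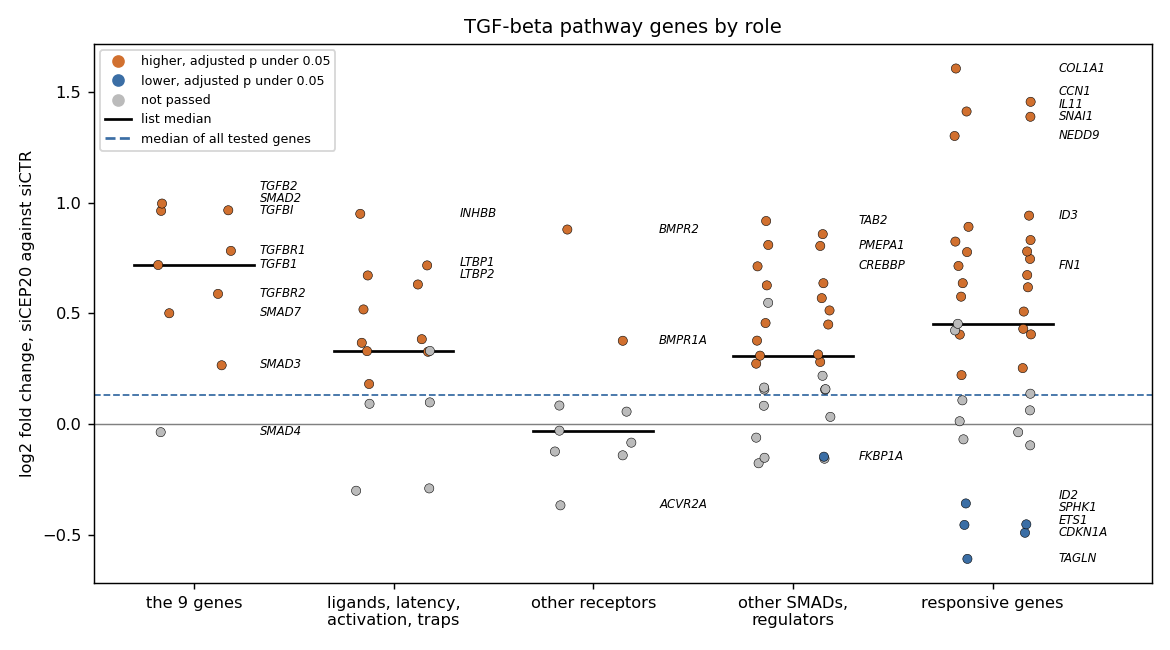
Log2 fold change (y axis, siCEP20 against siCTR) of the 9 genes and of the tested genes of the 4 pathway lists, coloured by direction where the adjusted p (limma) is under 0.05, with the median of each list (black bars) and of all tested genes (dashed line, 0.13), with gene names spaced apart for legibility. The responsive genes spread from -0.61 (TAGLN) to 1.61 (COL1A1), and the median of the other receptors lies below the dashed line.

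Of 25 other ligands, latency proteins, activators and ligand traps, 15 were tested, 10 were higher (66.7%, against 30.2% of all tested genes) and 0 lower (0 lower at an unadjusted p-value under 0.05, limma), and the list had a median of 0.33 in log2 fold change. INHBB, a subunit of activin B, rose from 20.3 ± 1.30 to 40.1 ± 1.94 TPM (log2 fold change 0.95, adjusted p = 8.42e-05, limma). LTBP1 and LTBP2 encode matrix proteins of the family named latent TGF-beta binding proteins. LTBP1 rose from 20.8 ± 2.39 to 34.7 ± 1.53 TPM (0.72, adjusted p = 0.000616, limma), and LTBP2 from 10.4 ± 0.671 to 17.1 ± 0.653 TPM (0.67, adjusted p = 0.000565, limma). With median-of-ratios scaling 6 of the 15 were higher, against 19.7% of all tested genes. The other 10 genes, including TGFB3, INHBA and the integrin subunits ITGB6 and ITGB8, had means under 1 TPM over the 6 libraries.

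Of 14 other receptors and co-receptors, 9 were tested, 2 were higher and 0 lower (1 lower at an unadjusted p-value under 0.05, limma). The share higher, 22.2%, was near the background, and the list median was -0.03. With median-of-ratios scaling 1 was higher and 2 were lower, against 19.7% and 21.8% of all tested genes. BMPR2, the type II receptor for BMPs, rose from 6.49 ± 0.874 to 12.7 ± 0.934 TPM (log2 fold change 0.88, adjusted p = 0.000648, limma). BMPR1A, a type I BMP receptor, rose from 11.3 ± 0.609 to 14.9 ± 1.37 TPM (0.38, adjusted p = 0.0131, limma), but with median-of-ratios scaling (0.23, adjusted p = 0.0638) and quantile normalization (0.21, adjusted p = 0.0783) it did not pass. The activin receptor ACVR2A was at 2.61 ± 0.366 and 1.80 ± 0.269 TPM (-0.37, adjusted p = 0.0903, limma), and it passed as lower with both scalings (adjusted p = 0.0337 and 0.0258), after the length and GC correction (0.0272) and without a variance trend (0.0388).

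Of 32 other SMADs, SMAD partners and regulators, 29 were tested, 16 were higher (55.2%) and 1 lower (3.45%), against 30.2% and 13.2% of all tested genes, and the list median was 0.31. PMEPA1, which sequesters receptor-activated SMADs, rose from 175 ± 6.19 to 306 ± 20.2 TPM (0.80, adjusted p = 7.42e-05, limma), and overlaps NKILA on the opposite strand. TAB2, an adaptor of the TAK1 kinase, rose from 28.9 ± 2.17 to 55.4 ± 3.62 TPM (0.92, adjusted p = 0.000123, limma). CREBBP, a histone acetyltransferase recruited by SMAD complexes, rose from 16.6 ± 0.848 to 27.8 ± 1.14 TPM (0.71, adjusted p = 0.000261, limma). The lower gene was FKBP1A, which binds TGFBR1 and keeps it inactive, named after its value was seen. Its change was small (-0.15, adjusted p = 0.0480, limma) and did not pass in 9 of 14 alternatives, among them those without any 1 of the siCEP20 replicates or without siCTR replicate 2 or 3 (adjusted p between 0.0616 and 0.140). With median-of-ratios scaling (background 19.7% and 21.8%) 11 genes were higher and 3 lower. With quantile normalization 10 were higher and 2 lower, where 3162 of all 14778 tested genes were higher and 2938 lower.

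Of 38 genes described as TGF-beta responsive in other cells, 37 were tested, 23 were higher (62.2%) and 5 lower (13.5%), and the list median was 0.45. Among all tested genes these shares were 30.2% and 13.2%, so the share lower was near the background. The 6 with the smallest adjusted p-values were IL11, CCN1, ID3, COL1A1, NEDD9 and SNAI1, all higher. IL11, a cytokine of the IL-6 family, rose from 54.0 ± 1.08 to 145 ± 4.62 TPM (1.41, adjusted p = 1.31e-05, limma). CCN1, a matricellular protein, rose from 85.4 ± 7.19 to 236 ± 11 TPM (1.46, adjusted p = 2.18e-05, limma). ID3, better known as a BMP-responsive inhibitor of helix-loop-helix factors, rose from 429.7 ± 15.6 to 826 ± 26.1 TPM (0.94, adjusted p = 2.65e-05, limma).

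COL1A1, a chain of type I collagen, rose from 5.52 ± 0.333 to 18.9 ± 1.15 TPM (1.61, adjusted p = 3.12e-05, limma). It also stands in the fibroblast marker list, of which COL1A2, the partner chain, was listed at 0 in every library. NEDD9, a scaffold of focal adhesions, rose from 28.4 ± 1.99 to 71.4 ± 4.73 TPM (1.30, adjusted p = 3.64e-05, limma), and SNAI1, a repressor of CDH1, from 9.95 ± 0.473 to 27.7 ± 2.61 TPM (1.39, adjusted p = 4.77e-05, limma). CDH1, named after its value was seen, was higher too, at 11.8 ± 0.682 in siCTR and 23.2 ± 1.18 TPM in siCEP20 samples (0.92, adjusted p = 0.000128, limma).

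Of further responsive genes, FN1, fibronectin, named after its value was seen, rose from 85.3 ± 12.2 to 140.1 ± 14.9 TPM (0.71, adjusted p = 0.00184, limma). The 5 responsive genes that fell, a share near the background of 13.2%, were CDKN1A, TAGLN, ID2, SPHK1 and ETS1, also named after their values were seen. CDKN1A, the cell cycle inhibitor p21, went from 348 ± 3.05 to 248 ± 5.87 TPM (-0.49, adjusted p = 0.000158, limma). TAGLN, a smooth muscle actin-binding protein, was low and went from 5.40 ± 0.912 to 3.18 ± 0.404 TPM (-0.61, adjusted p = 0.0112, limma). ID2, a relative of ID3, had a log2 fold change of -0.36, SPHK1, a sphingosine kinase, one of -0.45, and ETS1, a transcription factor, one of -0.46. TAGLN, ID2 and SPHK1 overlap genes on the opposite strand (PCSK7, ID2-AS1 and PRPSAP1). In bulk RNA, a change in the RNA per cell and a change in the number of expressing cells cannot be told apart.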

How the data were processed

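The deposited table gives expression as TPM, one value per Ensembl gene in each of 3 siCEP20 and 3 siCTR libraries. Per the study's methods and the labels, the authors cleaned reads with fastp 0.20.1, mapped them to hg38 with HISAT2 2.1.0 and quantified them with StringTie 2.0. The libraries were strand-specific (dUTP) and HISAT2 ran with its defaults. The annotation release and the strand setting of StringTie are not given in the sources used here. All 6 columns were mapped to samples by name, and depth is unknown, so precision rests on the replicates.

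Symbols and positions came from GENCODE 44 (hg38), which matched 60370 of 60624 identifiers. Groups were compared by limma 3.58.1 under R 4.3.3 (linear model, empirical Bayes with intensity trend) on log2(TPM + 1), unscaled, in genes averaging 1 TPM or more. The authors' DESeq2 test needs counts and was not run. Fold changes on this scale understate those of low genes. A called gene also had a fold change over 1.5 or under 0.67. Ratios and shares were compared by two-sided exact permutation tests (scipy 1.17.1). For the length and GC correction, loess curves (span 0.5) were fitted to each library and removed. The limma fit and the length and GC correction were tested on simulated data, and the other steps were not. The genes and lists were chosen with earlier results of these data known. Named genes were CEP20, the 9 genes, the 3 genes per list (6 of the responsive genes) with the smallest adjusted p, and the 3 genes most alike TGFB2. Alternatives covered the scaling (median of ratios or quantiles), the length and GC correction, the filter (none or 5 TPM), the pseudocount (0.1), the replicate block, omission of the variance trend and omission of each library. Other assays of the study were not analysed here. The values of 1 responsive gene are not reported here.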

Additional observations from a re-analysis of the deposited data

How the results depend on the processing

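The count of the 9 genes that were higher was 8 in 13 of 15 alternatives and 7 with median-of-ratios scaling and after the length and GC correction, where SMAD3 was lost, and 0 were lower in any of them. The number called with the fold threshold lay between 4 (median-of-ratios scaling) and 7 (without siCTR replicate 3). Only SMAD4 changed sign among the 9 genes, to 0.22 with its readthrough gene summed, and over the libraries left out it lay between -0.21 and 0.064. Median-of-ratios scaling gave 875 genes called higher and 1121 lower, and 2905 higher and 3219 lower at the adjusted p alone (main values 1659, 682, 4457 and 1944). Quantile normalization gave 923 called higher and 1016 lower, and 3162 higher and 2938 lower at the adjusted p alone. The length and GC correction gave 1513 called higher and 518 lower, and 4158 higher and 1778 lower at the adjusted p alone. Of the pathway genes, 12 were lower with median-of-ratios scaling against 6. In these counts a change of scale moved the balance of directions, and the cause was not tested. The labels do not say whether the replicate number pairs the samples. Deviations of same-numbered samples had correlations of 0.157, -0.0614 and -0.0623, and those of different-numbered samples lay between -0.121 and 0.170. With a replicate block 1654 genes were called higher and 694 lower, and 8 of the 9 genes were higher. Depth is unknown and 3 libraries a group limit the precision.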
